A study of Schizosaccharomyces pombe with 2 samples.

Results

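The septation initiation network is the signalling pathway that tells fission yeast to build its division septum after mitosis. The 10 genes described here are plo1, spg1, cdc7, sid1, sid2, mob1, cdc11, sid4, cdc14 and cdc16. They were taken by standard gene name from the tables of poly(A) sites, where each name matched 1 row, out of 5289 features and 5113 protein-coding genes. Wild-type Schizosaccharomyces pombe (source name FWP9), growing exponentially at 30 °C in the rich medium YPD, gave both of the study's libraries, called A and B. They form a single group, so comparisons run between genes and between the libraries. The method, 3' READS, sequences the ends of polyadenylated RNA, and a read marks the base where a transcript was cut before its poly(A) tail was added. Whether the replicates came from separate cultures is not stated, so their difference may be technical.

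In the pathway, the scaffold proteins Sid4 and Cdc11 hold the other components at the spindle pole body. The GTPase Spg1 is the switch: it is turned off by the GTPase-activating protein Cdc16, which works with Byr4, and the Polo kinase Plo1 acts upstream of it. Active Spg1 binds the kinase Cdc7, which is followed by the kinase Sid1 with its partner Cdc14 and then by the kinase Sid2 with its partner Mob1, whose activity leads to closure of the actomyosin ring and to septum synthesis. Fission yeast Cdc14 is a partner of Sid1 and is not the phosphatase that carries this name in budding yeast.

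The sequences below are the DNA letters of the transcribed strand upstream of the position that held most reads in each library, for the 6 genes with at least 50 reads in both. They are shown because 5 of the 6 genes had a different leading position in A and in B. Each run holds 30 bases, from 39 to 10 nt upstream of the site, read from RefSeq assembly ASM294v3, and capitals mark AATAAA, the classical poly(A) signal, or any of its 18 single-base variants. Position 1 is the base that follows the stop codon.
plo1, position 394 in A and B: tagtcacagctatgttaattgatttttatt
spg1, position 214 in A: attataaccacgatctctgcaacttttggt
spg1, position 248 in B: tgtttgaacgaaatctgtctAATTAAAagt
sid1, position 82 in A: ttttgtatttaAATGAActtataatggcat
sid1, position 122 in B: aatttaatctacatAATATATATAAAcaca
sid2, position 283 in A: ttccactattttattcgtcaatattcagct
sid2, position 376 in B: gggaAATAGAcactatctgcaatttaatat
cdc11, position 151 in A: cattaccatagtgtaAATAATAATtcgatt
cdc11, position 102 in B: gttgtgtaaaggttAATAATcacAATACAt
sid4, position 101 in A: aatgttGATAAAtatgaAATATAttattaa
sid4, position 120 in B: tatattattaactactgactgAATGAAaga

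In chromosome coordinates of that assembly, the runs lie at I:2166646-2166675 (plus strand) for plo1, at I:1299940-1299969 and I:1299906-1299935 (minus strand) for spg1, at I:1987271-1987300 and I:1987311-1987340 (plus strand) for sid1, at I:221756-221785 and I:221663-221692 (minus strand) for sid2, at III:2049274-2049303 and III:2049323-2049352 (minus strand) for cdc11, and at II:4362904-4362933 and II:4362923-4362952 (plus strand) for sid4, in the order printed. All these sites lie in the 3' untranslated region (UTR) as annotated in the deposited tables, except position 376 of sid2, which is past its annotated end.

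The network's transcripts were scarce in these libraries. Replicate A held 50972159 reads in the windows of 400 nt after the stop codons and replicate B 54744177, of which the 10 genes together took 1793 and 1503. These read numbers were inferred from the scaled values in the deposited tables, with the smallest step between values taken as 1 read. Levels are given as RPM, the window reads of a gene per 1000000 window reads of its library. The median level of the 10 genes was 1.76 RPM, against 6.33 RPM for all protein-coding genes, and 8 of the 10 lay below that median. A transcript gives 1 end whatever its length, so reads were not divided by length, but ends past the window were missed. In an unsynchronised culture, a transcript made in few cells and one made at a low level in all cells cannot be told apart. The requirement of at least 50 reads in each library was met by 6 of the 10 genes and by 74.7% of all protein-coding genes.

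The scaffold gene sid4 was the highest, with 504 reads in A and 414 in B (8.73 ± 1.64 RPM; SD, n = 2). The kinase gene sid2 had 499 and 326 reads (7.87 ± 2.71 RPM), and the second scaffold gene, cdc11, had 300 and 224 (4.99 ± 1.27). The Polo kinase gene plo1 followed with 133 and 222 reads (3.33 ± 1.02 RPM). The ranges of sid4 and sid2 overlapped, while those of sid2 and cdc11, and of cdc11 and plo1, did not, though with 2 libraries a range says little. Next came cdc14 with 176 reads in A and 46 in B (2.15 ± 1.85 RPM), the GTPase gene spg1 with 50 and 97 (1.38 ± 0.559), sid1 with 59 and 69 (1.21 ± 0.0728) and cdc7 with 41 and 81 (1.14 ± 0.477). From plo1 to cdc7, each gene's range overlapped that of the next, so their order is not settled. The lowest were cdc16, with 10 and 24 reads (0.317 ± 0.171 RPM), nearly all inside the coding region of its neighbour, and mob1, with 21 reads in A and none in B. For mob1 in B, a count of 0 allows up to 0.0548 RPM, as counting error only; 8.86% of protein-coding genes had no window reads in at least 1 library.

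**Figure D1:**
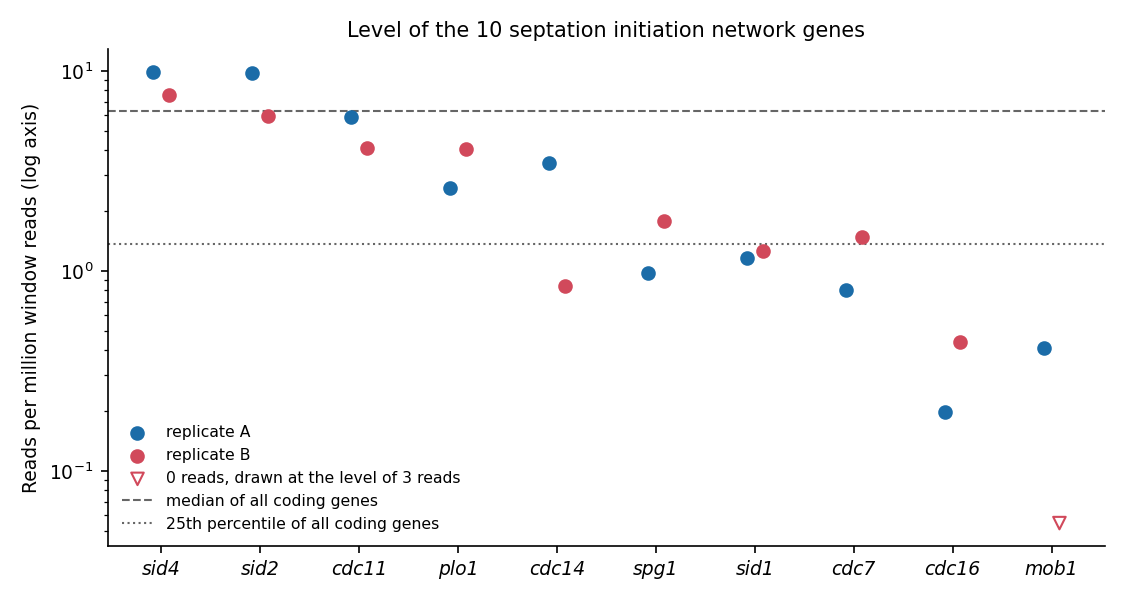
Level of the 10 network genes in each library, in RPM on a log axis. Blue points are replicate A and red points replicate B; the open triangle stands for mob1 in B, with 0 reads, drawn at the level of 3 reads. Only sid4 lies above the dashed median of all coding genes (6.33) in both libraries, and sid1, cdc16 and mob1 lie below the dotted 25th percentile (1.37) in both.

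The 6 measured genes ended at very different distances from the stop codon, and their order by mean position was the same in both libraries. For each gene and library, the mean position weighted by reads was computed. By this measure the scaffold gene sid4 ended nearest, at 95.5 nt in A and 95.9 nt in B (95.7 ± 0.268 nt, SD, n = 2). The kinase gene sid1 lay at 106 and 118 nt (112 ± 8.78 nt) and the scaffold gene cdc11 at 134 and 153 nt (144 ± 13.0 nt). The switch gene spg1 lay at 263 and 247 nt (255 ± 11.3 nt), the kinase gene sid2 at 315 and 323 nt (319 ± 5.44 nt) and plo1 at 392.8 and 393.1 nt (393 ± 0.223 nt). No 2 neighbours in this order overlapped in their replicate ranges. The smallest step was that from sid4 to sid1, and the widest that from cdc11 to spg1. The order of sid4, sid1 and cdc11 depended on the measure. Their median positions were 101, 82 and 151 nt in A, and 97, 122 and 102 nt in B.

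The median over the 6 genes was 199 nt, against 143 nt for the 3818 measured genes. Of the 6, 4 lay above the all-gene median, beside 50% of all measured genes by construction, and cdc11 did so by less than its replicate SD. With at least 20 reads in each library as the requirement, cdc7 and cdc14 joined and the median of 8 genes was 136 nt, against 147 nt for all genes, with 3 of the 8 above. The median of the list thus depended on the read requirement, while its members were spread widely: plo1, spg1 and sid2 lay far from the stop codon, and sid4, sid1 and cdc11 at the middle of all genes or before it. Among the measured genes, 99.9% had a lower mean position than plo1, 93.7% than sid2, 82.3% than spg1, 50.1% than cdc11, 36.3% than sid1 and 29.3% than sid4.

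**Figure D2:**
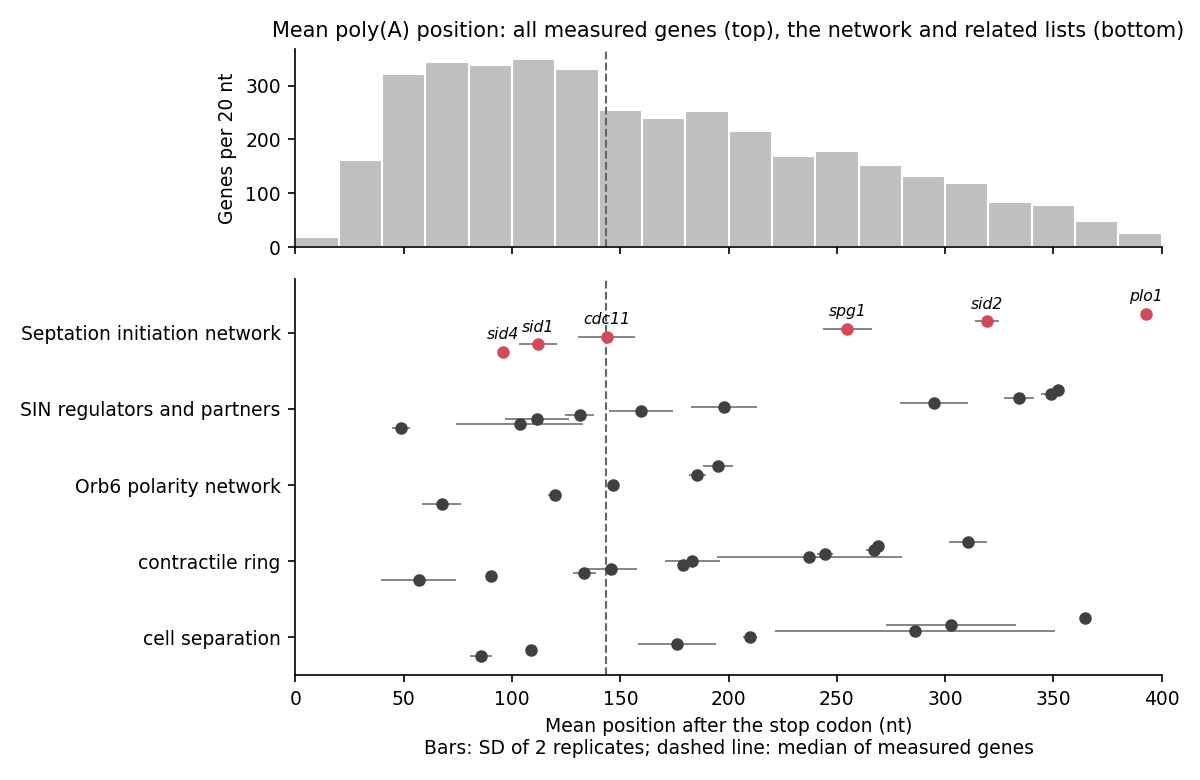
Mean poly(A) position in nt after the stop codon, for all 3818 measured genes as a histogram (top) and for the measured genes of the network and of 4 related lists as points (bottom). Bars are the SD of the 2 replicates and the dashed line is the median of all measured genes, 143 nt. The 6 network genes span the axis from sid4 at 95.7 nt to plo1 at 393 nt.

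The position of plo1 was carried by 1 site. In A, 130 of 133 reads ended at position 394, a share of 97.7% (95% Wilson interval 93.6% to 99.2%), and in B 203 of 222 did (91.4%, 87.0% to 94.5%). The site lies at base 2166685 of chromosome I. In B a further 17 reads ended at position 399, which had none in A, and 3 reads over both libraries ended between positions 230 and 249. The width of the profile, taken between the 10th and 90th percentiles of its reads, was 0 nt in both libraries. The site is 6 nt from the edge of the window, and the annotated end of plo1 lies at 474 nt, so sites farther downstream were not seen. The next coding gene, mdm28, a putative potassium transporter on the same strand, starts 915 nt away.

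The switch gene spg1 had the least similar profiles in the 2 libraries among the measured genes of the network. Replicate A had reads at 9 positions, with 17 at position 214, 12 at 325 and 11 at 248, whereas in B 95 of 97 reads ended at position 248. That share was 97.9% in B (95% Wilson interval 92.8% to 99.4%) and 22.0% in A (12.8% to 35.2%). Position 214, with the most reads in A, had none in B. Reads of 1 library can be copies of the same molecule, and such intervals cover counting error only. The mean positions were 16.0 nt apart, against a median of 5.18 nt for all measured genes. For measured genes whose shallower library held 50 to 414 reads, the median was 11.1 nt. On this measure cdc11 differed more than spg1, with mean positions 18.4 nt apart. Position 248 lies between the outer sites of A. With 50 reads in A, spg1 stood exactly at the read requirement, and cdc14, with 46 in B, just below it. The next coding gene, utp8 is convergent, and its coding region ends 433 nt away.

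The scaffold genes used several sites. For sid4, 335 of 504 reads in A and 188 of 414 in B ended between positions 89 and 101, and the single position 51 took 92 and 63 reads. The leading positions were 101 in A, with 209 reads there against 36 in B, and 120 in B, with 106 reads against 28 in A. All of the reads ended before the coding region of the convergent gene mrpl15, which encodes a protein of the mitochondrial ribosome and whose stop codon lies 208 nt from that of sid4. The annotated end of sid4, at 1084 nt, lies past that gene's stop codon, and the sites used here were much nearer.

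For cdc11 the sites at positions 102 and 150 to 157 held most reads in both libraries, in opposite order. Position 102 took 96 of 300 reads in A (32.0%, 95% Wilson interval 27.0% to 37.5%) and 130 of 224 in B (58.0%, 51.5% to 64.3%). Positions 150 to 157 took 192 reads in A (64.0%, 58.4% to 69.2%) and 46 in B (20.5%, 15.8% to 26.3%). The intervals did not overlap, but they cover counting error within a library only, and the difference was not tested. Replicate B also had 39 reads between positions 313 and 326, past the annotated end at 285 nt, where A had none; these reads lie on the strand of cdc11, opposite to its convergent neighbour mug33, whose coding region ends 469 nt away. The width of the profile was 53 nt in A and 211 nt in B.

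The kinase gene sid2 had the most dispersed ends, with reads at 26 positions over both libraries and an effective number of sites of 9.65 ± 0.507 (SD, n = 2), against a median of 4.73 and a 75th percentile of 6.80 for all measured genes. This number, the exponential of the profile's Shannon entropy, equals the number of sites if all are used alike. The reads fell into 2 main groups in both libraries. Positions 279 to 292 took 217 of 499 reads in A and 94 of 326 in B, and positions 361 to 390 took 184 and 160. The larger group was thus the nearer one in A and the farther one in B. Position 376, the leading one in B with 67 reads, had none in A, where 55 reads ended 1 nt away at 377. The annotated end of sid2 lies at 335 nt, between the groups, and the next coding gene, cfh1, a chitin synthase regulatory factor gene on the same strand, starts 574 nt away.

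The kinase gene sid1 used 2 places, positions 72 to 82 and 115 to 122. The nearer took 34 of 59 reads in A and 24 of 69 in B, and the farther 21 and 40. It also had many reads inside its open reading frame: 29 in A, which was 33.0% of its reads there and in the window (95% Wilson interval 24.0% to 43.3%), and 11 in B (13.8%, 7.85% to 23.0%). For the other 5 measured genes the share inside the open reading frame was at most 2.92%. The sites of sid1 lie just short of the stop codon of its convergent neighbour inp53, an inositol polyphosphate phosphatase gene, which is 135 nt away, and 9 of 128 reads over both libraries ended past it. The transcript annotated for sid1 runs on to 4006 nt after its stop codon.

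**Figure D3:**
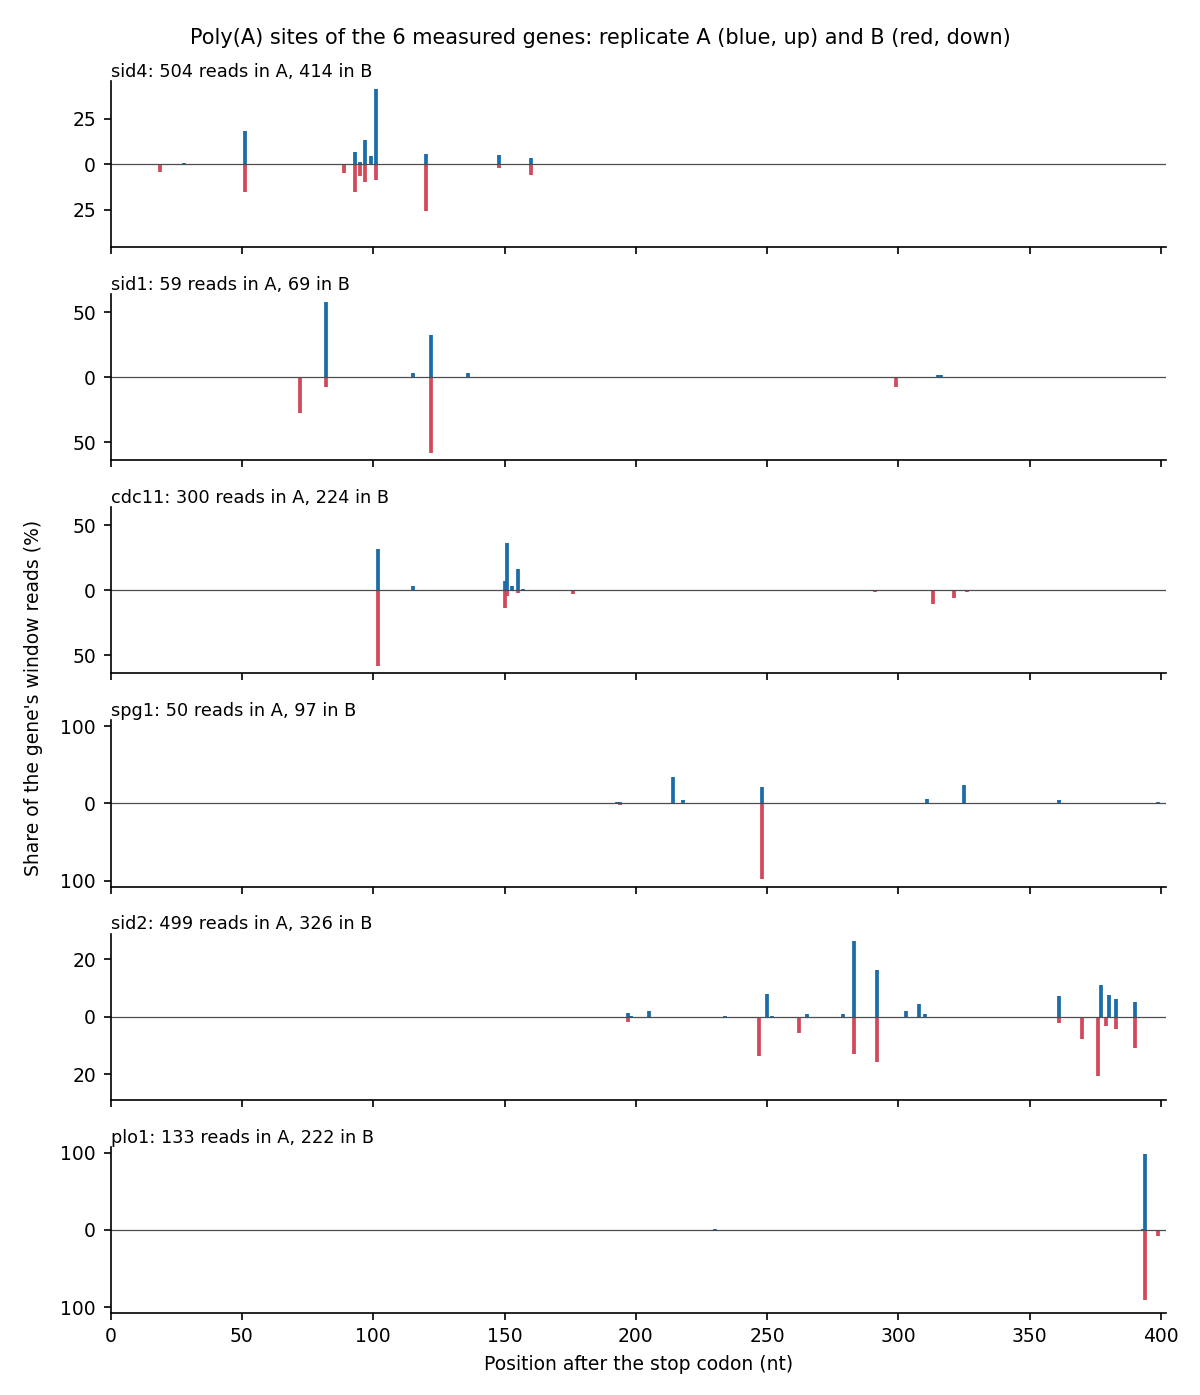
Share of each gene's window reads, in percent, at every position after the stop codon, for the 6 measured genes ordered by mean position. Bars above 0 are replicate A and bars below 0 replicate B; the scale differs between genes. For plo1 both libraries peak at position 394, whereas for spg1 a single position of B, 248, faces several of A.

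The leading position was the same in both libraries for 1 of the 6 measured genes, plo1, against 72.4% of all measured genes. Of the 1696 measured genes whose shallower library held 50 to 414 reads, the range of the 6, 57.8% had the same leading position, a comparison added after seeing the data. With leading positions up to 10 nt apart taken as equal the count was still 1 of 6, against 82.1% of all measured genes. The mean positions of the libraries lay within 10 nt of each other for 3 of the 6 genes, plo1, sid4 and sid2, against 66.1%. Neither 82.1% nor 66.1% was matched for read number. The median difference of mean positions was 10.1 nt for the 6, 5.18 nt for all measured genes and 11.1 nt for the 1696. The median share of reads at positions seen in both libraries was 81.7%, 92.1% and 80.1%. On these measures, unlike the leading position, the 6 were close to the 1696 genes in their read range. The 6 genes are few, and no test was made of any of these differences.

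The share of the profile common to both libraries was 91.4% for plo1, 52.2% for sid4, 46.1% for cdc11, 41.6% for sid2, 39.4% for sid1 and 24.0% for spg1, with a median of 43.9%. The median was 74.3% over all measured genes and 58.1% over those of like read number. With positions joined into groups over gaps of at most 10 nt, the median of the 6 rose to 73.0%, against 90.3% and 78.6%. The increase was largest for sid2, from 41.6% to 76.8%, and there was next to none for spg1, which stayed at 24.1%. It rose from 52.2% to 75.6% for sid4 and from 46.1% to 52.5% for cdc11. For sid1 it rose from 39.4% to 70.4%, chiefly because position 82, with 34 reads in A, was joined with position 72, with 19 reads in B, which is 10 nt away.

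**Figure D4:**
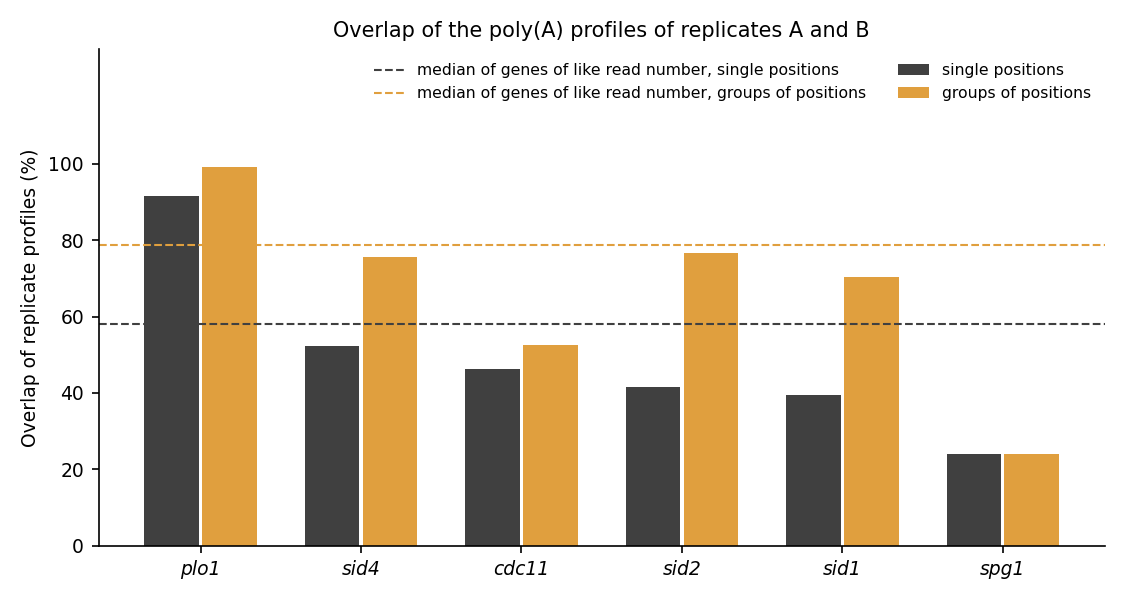
Overlap of the poly(A) profiles of replicates A and B in percent, for the 6 measured genes, computed on single positions (black bars) and on groups of positions joined over gaps of at most 10 nt (orange bars). Dashed lines are the medians of the 1696 genes of like read number, 58.1% and 78.6%. The bars of plo1 exceed the line of their own colour and those of the other 5 genes do not.

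The 4 remaining genes had too few reads for a firm position. The kinase gene cdc7 ended between positions 99 and 167. Its reads in A lay at positions 99, 103, 118 and 129, and those in B chiefly at 113 and 157, with 28 and 42 of 81 reads. Only position 99 was shared, with 3 reads in A and 1 in B. The leading position of cdc14 was 130 in A, with 109 of 176 reads, and 72 in B, with 22 of 46 reads, and position 72 had no read in A. The Sid2 partner gene mob1 had its 21 reads in A at positions 80 and 88 and none in the window in B, with 1 read of B in its open reading frame.

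The reads in the window of cdc16, the negative regulator, cannot be assigned to it. The ribosomal protein gene rps13, which lies downstream on the same strand, has its start codon 132 nt after the stop codon of cdc16. Of the 34 reads in the window, 33 ended past that start codon, 30 of them in coding exons of rps13, and 1 read ended before it, at position 110. The annotated end of cdc16 lies at 105 nt. The rps13 window itself held 13924 reads in A and 9090 in B. A coding gene on the same strand begins inside the window for 6.9% of protein-coding genes and, within the network, for cdc16 only. A coding gene on the opposite strand ends inside it for 3 of the 10, sid1, sid4 and cdc14, and for 27.9% of all.

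**Figure D5:**
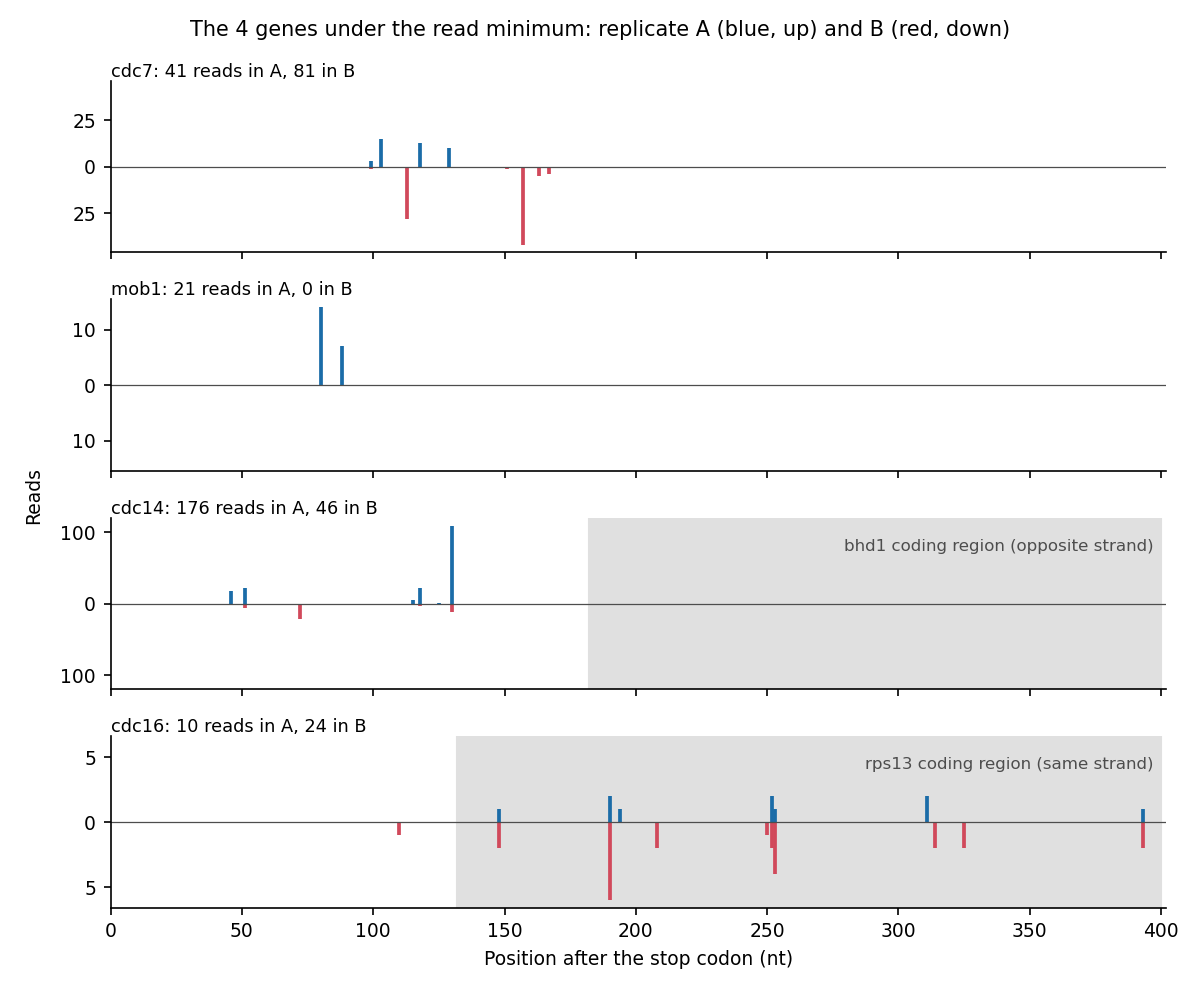
Reads at each position after the stop codon for cdc7, mob1, cdc14 and cdc16, which had fewer than 50 reads in at least 1 library. Bars above 0 are replicate A and bars below 0 replicate B; grey marks the coding region of the next coding gene. All but 1 of the cdc16 reads lie in the grey region of rps13, and mob1 has reads in A alone.

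Annotated ends were often far from the sites found. They lie past the window for 6 of the 10 genes, plo1, spg1, cdc7, sid1, sid4 and cdc14, against 28.8% of all protein-coding genes, and for 4 of the 6 measured genes, against 23.2% of all measured genes. The window is blind to any use of those ends. Counted from the leading position of both libraries together to the annotated end, the distance was 80 nt for plo1, 189 nt for spg1, 52 nt for sid2, 183 nt for cdc11, 983 nt for sid4 and 3884 nt for sid1.

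A poly(A) signal of AATAAA or a single-base variant lay 10 to 40 nt upstream of the leading position, over the summed reads of both libraries, in 4 of the 6 measured genes, against 71.4% of all measured genes. The 4 were spg1, sid1, cdc11 and sid4, and the 2 without a match were plo1 and sid2. The unchanged AATAAA was found in none of the 6, and in 20.7% of all measured genes. In the sequences above, the site of cdc11 in B follows AATAAT and AATACA, that in A 2 copies of AATAAT, and the site of spg1 in B follows the overlapping matches AATTAA and ATTAAA. Where the libraries differed, the leading sites of spg1 and sid2 in A had no match and those in B had one. The single-base variants are common in this AT-rich sequence and a match is no proof of a working signal, nor does a missing match say that none acted.

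The letters TATTTAT, the core of the AU-rich elements that zinc finger proteins such as Zfs1 of fission yeast bind, stood between the stop codon and the leading position in 2 of the 6 measured genes, plo1 and sid2, against 12.7% of all measured genes. The stretch searched ran to position 394 in plo1 and 283 in sid2. The median most used position of all measured genes was 141, so these 2 genes offered more sequence for a match. The 2 matches are shown with 10 bases on each side, capitals marking the motif.
plo1, positions 282 to 308, I:2166573-2166599, plus strand: aggcgacactTATTTATctaatcaaaa
sid2, positions 226 to 252, I:221777-221803, minus strand: attatattttTATTTATcttccactat
In plo1 the motif was followed by the ends of 132 of 133 reads in A and 220 of 222 in B, and in sid2 by 482 of 499 and 318 of 326. Nearly every transcript end seen thus lay after the motif. This follows in part from the choice of genes, since the motif was sought before the leading position. In plo1 that position held 333 of 355 reads over both libraries. On the opposite strand the letters lay before the leading position of 1 of the 6 genes, sid4, against 7.39%. On the transcribed strand of the whole window of 400 nt they were found in 4 of the 10 genes, plo1, cdc7, sid2 and mob1, against 24.7% of protein-coding genes. Of the 6 measured genes, the same 2, plo1 and sid2, had the letters in the whole window. For cdc7 1 of 4 copies, 2 of which overlap, lay before its sites, and for mob1 the copy lay after them.

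Genes that work with the network were taken from 4 lists. Of 14 regulators and partners, 10 were measured, with a median position of 179 nt and 6 of 10 above the median of all genes. By the naming rule, among genes whose replicates lay within 10 nt, par1, a regulatory subunit of protein phosphatase 2A, was lowest (48.7 ± 4.08 nt; SD, n = 2), and scw1, which encodes an RNA-binding protein, highest (352 ± 0.0130 nt). The annotated end of scw1 lies at 90 nt, before that position, and whether the reads belong to scw1 was not tested. Of 6 genes of the Orb6 kinase network for polarised growth, 5 were measured, with a median of 147 nt and 3 above. Among those with replicates within 10 nt, the lowest was sog2, a leucine-rich repeat protein gene (120 ± 3.03 nt), and the highest pmo25 (195 ± 6.95 nt), whose product belongs to the MO25 family.

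Of 12 contractile ring genes, 11 were measured, with a median of 183 nt and 8 above the all-gene median. Among those with replicates within 10 nt, the lowest was ain1, which encodes alpha-actinin (90.3 ± 1.86 nt), and the highest cdc4, a myosin light chain gene (269 ± 0.0720 nt). Of 14 genes of cell separation, 7 were measured, with a median of 210 nt and 5 above. Under the same limit, these ran from the septin gene spn2 (85.7 ± 4.93 nt) to cfh4, a chitin synthase regulatory factor gene (364 ± 1.59 nt). The leading position was the same in both libraries for 5 of 10, 3 of 5, 9 of 11 and 6 of 7 measured genes of these lists, against 1 of 6 in the network. These counts were not matched for read number, with which such agreement varied (72.4% of all measured genes, 57.8% in the read range of the network). The lists include deeper genes, such as cdc8 with 8724 reads in A and 7730 in B, while no network gene had more than 504. The lists hold few genes, the differences were not tested, and their median levels ranged from 1.54 to 8.32 RPM.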

How the data were processed

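The data were 3' READS libraries of 2 samples. The aligner Bowtie is named, per the submitters' processing notes; version and build: not given in the sources used here. The authors deposited, per the file headers, read signal values for each feature and the level at each of 400 positions after the stop codon as a percent of the highest position. Low signal values were multiples of 1 step, 0.930 in A and 0.869 in B: 100% of 6829 and 7442 values of at most 100 reads were whole within 0.1 after division by it. That 1 step is 1 read is an inference from the values, on which all read numbers, levels and intervals rest; what the authors' factor stands for is not stated. Reads per position are rounded values of this division. Stop codons of all 5113 protein-coding features equalled those of RefSeq assembly ASM294v3, from which neighbours and sequence were taken; annotated ends are those in the deposited tables. No test was made, since there is 1 group. Shares have 95% Wilson intervals, and a count of 0 a limit of 3 reads. The recovery of reads and positions was tested on simulated data. The members and lists were chosen with earlier results of these data known. In lists of related genes, the lowest and highest position among genes with replicates within 10 nt were named. The alternatives were the read requirement, the window, the position and width measures, each library alone, the authors' merged table, the motifs and the level scale. Python 3.11.15, NumPy 2.4.6, pandas 2.3.3, SciPy 1.17.1 and Matplotlib 3.10.9 were used.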

Additional observations from a re-analysis of the deposited data

How the results depend on the processing

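The median position of the measured network genes (199 nt, all measured genes 143 nt) depended on the genes and measure used. It was 136 nt at 20 reads (8 genes), 144 nt at 200 reads (3 genes) and 117 nt in positions 1 to 300 (4 genes). The all-gene medians there were 147, 140 and 127 nt. In the authors' merged table the network median was 137 nt (8 genes, all genes 147 nt). Without replicate A it was 153 nt (7 genes, all genes 144 nt), and without replicate B 134 nt (7 genes, all genes 146 nt). With median positions it was 187 nt, against 142 nt for all genes, and with most used positions 179 nt, against 141 nt. At 200 reads 3 genes were measured, 2 of them above the all-gene median; in positions 1 to 300, 1 was above. The median width (62.2 nt) was 132 nt at 200 reads, 48 nt in positions 1 to 300, 47 nt between the 25th and 75th percentiles, and 50 to 69 nt with 1 library left out. With AATAAA or ATTAAA as the only signals, 1 of 6 genes had a match, with no share of all measured genes at hand for comparison. The median level was 2.33 RPM without the 5 leading features. Profile overlap had a median of 82.5% in groups over gaps of 20 nt (73.0% over 10 nt). Among single genes, 4 had a mean position in positions 1 to 300. Of these, sid2 (273 nt) and cdc11 (126 nt) moved there by more than their replicate SD. The read requirement, a single library and the merged table could not move a gene's mean position by more than that SD. Other position measures could: the median position of sid2 was 292 nt, against a mean of 319 ± 5.44 nt. The cause was not tested beyond the change in genes or window. No paired analysis was possible because there is 1 group.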

Other observations

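Among the related genes, mob2, which encodes the partner of the Orb6 kinase, and the forkhead factor gene fkh2 had no reads in the window in either library; their annotated ends lie beyond it, at 1026 and 1109 nt. They were named after their values were seen. Of the 14 cell separation genes 6 have an annotated end past the window, against 28.8% of all protein-coding genes. In the other lists these were 3 of 14 regulators and partners, 1 of 6 Orb6 network genes and 4 of 12 contractile ring genes.

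In the 10 bases after its leading position, plo1 has 5 A, spg1 has 5 in A and 1 in B, sid1 has 4 at both sites, sid2 has 6 and 2, cdc11 has 7 and 3, and sid4 has 6 and 5, against a median of 4 for all measured genes. Where a cut falls beside genomic A, the last bases of a transcript and the first of its tail are the same letter, which limits how exactly a site can be placed.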
